A study of Mus musculus with 12 samples.

Results

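Late neutrophil maturation was followed through 10 genes that late stages of neutrophil development are known for: Mmp9, Padi4, Anxa1, Cxcr2, Itgam, S100a8, S100a9, Retnlg, Fpr1 and Csf3r. They were chosen by name, with earlier results of these data known. Every probe set whose platform annotation gave exactly 1 symbol from that list was used. This gave 10 probe sets for 8 of the 10 genes, among 28805 probe sets with 1 symbol for 15858 genes. Mmp9 and Anxa1 had 2 probe sets each and the other 6 genes had 1. Retnlg and Fpr1 were matched neither by symbol nor by Entrez identifier and were not analysed here.

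The arrays carried RNA of GFP-positive cells sorted from the bone marrow of C57BL6 mice 4 weeks after transplantation. All transplanted cells were bone marrow cells immortalised with HoxA9, a homeobox transcription factor, so every group, controls included, shared that background. Cells were transduced with a retroviral empty vector, with pSF91-IDH1wt-IRES-EGFP (IDH1wt) or with pSF91-IDH1mut-IRES-GFP (IDH1mut), and put into irradiated recipients. In the fourth group, recipients of empty vector cells received R-2HG, the metabolite made by mutant IDH1, at 1 mg per day for 4 weeks. Each group had 3 arrays. The titles, source names and construct fields of the R-2HG samples give the empty vector, as does the design text, whereas their description field names the IDH1mut vector; the former were followed. The labels name neither the IDH1 mutation nor the number of cell clones, and leave unsaid whether the 3 replicates of a group were 3 mice, so each p-value covers the spread between arrays, which may be technical. Sorting was by GFP and not by a neutrophil marker.

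Neutrophils mature in the marrow from promyelocytes, which fill primary granules, through myelocytes and metamyelocytes, which fill secondary and tertiary granules, to segmented cells. The late stages gain the receptors for chemoattractants and for granulocyte colony-stimulating factor, the adhesion molecules that carry cells out of the marrow and into tissue, and large stores of calprotectin. In myeloid leukaemia this course is blocked to various degrees, and the products of each stage are used as markers of how far cells have come.

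The upstream sequence of 5 of the genes is printed because these promoters belong to 4 of the genes that rose in the IDH1mut arrays and to 1 gene, S100a8, whose values hardly moved. Each run is the 150 bases before the RefSeq start on GRCm38.p6, written 5′ to 3′ along the gene's strand, with motif matches in capitals: Padi4 is chr4:140774204-140774353 (minus strand), Itgam is chr7:128062490-128062639 (plus strand), Cxcr2 is chr1:74153844-74153993 (plus strand), Anxa1 is chr19:20390672-20390821 (minus strand) and S100a8 is chr3:90668921-90669070 (plus strand).
Padi4: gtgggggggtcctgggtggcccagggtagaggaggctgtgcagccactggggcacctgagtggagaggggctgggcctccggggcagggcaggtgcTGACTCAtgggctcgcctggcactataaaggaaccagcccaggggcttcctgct
Itgam: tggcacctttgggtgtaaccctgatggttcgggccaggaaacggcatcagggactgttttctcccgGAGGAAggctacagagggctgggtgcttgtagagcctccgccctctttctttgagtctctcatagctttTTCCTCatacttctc
Cxcr2: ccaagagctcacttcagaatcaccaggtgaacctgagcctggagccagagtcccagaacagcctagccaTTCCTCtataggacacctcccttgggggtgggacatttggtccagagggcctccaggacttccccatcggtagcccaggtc
Anxa1: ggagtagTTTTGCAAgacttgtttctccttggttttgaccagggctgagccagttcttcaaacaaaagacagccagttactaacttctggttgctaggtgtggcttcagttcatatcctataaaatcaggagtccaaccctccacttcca
S100a8: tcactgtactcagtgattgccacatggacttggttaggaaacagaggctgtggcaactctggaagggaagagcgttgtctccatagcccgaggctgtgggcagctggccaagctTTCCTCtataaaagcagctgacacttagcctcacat
The 5 motifs named here were searched on both strands of RefSeq windows of 300 bases, 250 before and 50 after the start, and 7 of the 8 measured genes had such a window. The capitals in Itgam, Cxcr2 and S100a8 mark GAGGAA, the core bound by the myeloid factor PU.1, or its reverse complement. That motif was in 5 of the 7 windows and in 28.276% of all 32851 windows, and lay before the start in the same 5 and in 23.253% of all. In Itgam it lay 84 to 79 and 15 to 10 bases before the start, in Cxcr2 81 to 76, in S100a8 170 to 165 and 36 to 31, in Anxa1 227 to 222 and in Csf3r 86 to 81. The capitals in Anxa1 mark the C/EBP motif TTGCNNAA on the opposite strand, 143 to 136 bases before the start; it was in 2 of the 7 windows, with S100a9 at 236 to 229, and in 10.797% of all windows. The capitals in Padi4 mark the AP-1 motif TGANTCA at 54 to 48 bases before the start, in 1 of the 7 windows and 7.808% of all. The NF-kB motif (1.629% of windows) and the HOX-PBX motif TGATNNAT (8.846%) were in 0 of the 7. A PU.1 match and an NF-kB match can share letters. The promoter of S100a8 carried the same PU.1 letters as those of Itgam and Cxcr2. Whether any of these motifs bears on the array values was not tested.

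The deposited values are log2 signals centred per probe set, from -6.483 to 4.926, with a median of 0 on every array. They hold no absolute level, so a value says only how far an array lay above or below the middle of that probe set, and levels of different genes cannot be compared. The SD over all probe sets of the difference between arrays was 0.178 to 0.362 within groups (median 0.240) and 0.294 to 0.555 between groups (median 0.394). R-2HG replicate 3 stood apart: it differed from R-2HG replicates 1 and 2 by 0.350 and 0.362, while those differed from each other by 0.178, and its distances from the 9 arrays of the other groups began at 0.346, with IDH1mut replicate 1. Idh1 itself was called in none of the 6 comparisons (log2 differences from -0.19 to 0.28, lowest adjusted p = 0.0599), and the probe sets need not cover the vector's transcript. Hoxa9, the gene used to immortalise the cells, was called lower in 3 of the 6: IDH1mut against IDH1wt (-0.54, adjusted p = 0.00135), IDH1mut against R-2HG (-0.32, adjusted p = 0.0126) and R-2HG against IDH1wt (-0.22, adjusted p = 0.0444). In IDH1mut against empty vector it was -0.24 (adjusted p = 0.0515). The part of Hoxa9 in the results was not tested. All differences are on the log2 scale with n = 3 arrays per group, and adjusted p-values are from limma with Benjamini-Hochberg adjustment over the 15858 genes and a threshold of 0.05. In RNA of a sorted bulk population, fewer cells of a type and less RNA per cell cannot be told apart.

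Of the 8 measured genes, 6, namely Mmp9, Padi4, Anxa1, Cxcr2, Itgam and Csf3r, rose in IDH1mut against empty vector, by 1.39- to 2.01-fold. All of these but Anxa1, 5 genes, also rose in R-2HG against empty vector, by 1.40- to 2.10-fold. The 2 probe sets of Anxa1 pointed opposite ways in that comparison (-0.41 and 0.18), and neither was called. No member was called in IDH1wt against empty vector, where 1.35% of all genes were called. In that comparison Mmp9 (0.33) and Csf3r (0.27) had 95% intervals above 0. Over all genes, 22.6% were called in IDH1mut and 40.8% in R-2HG, each against empty vector, 10.5% and 16.5% as higher. S100a8 and S100a9 were called in no comparison.

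**Figure D1:**
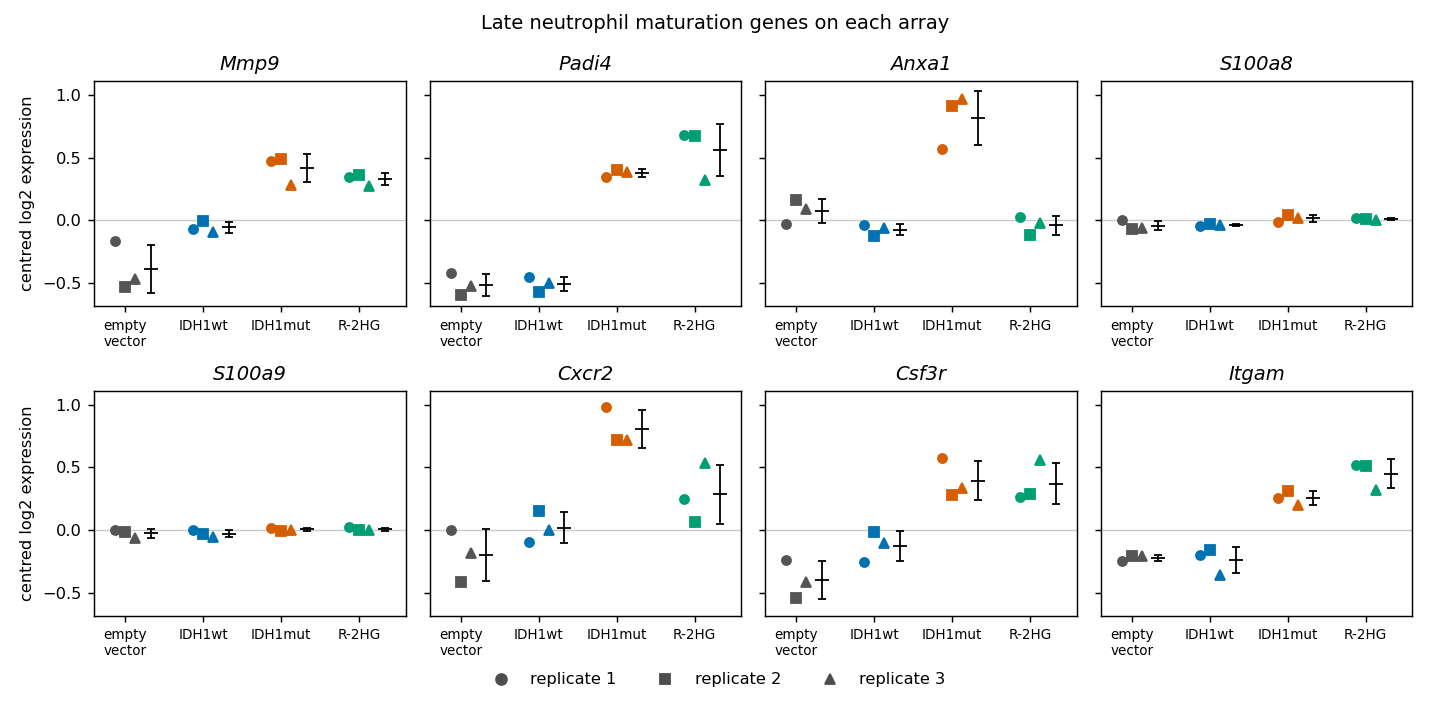
Centred log2 value (vertical axis) of each of the 8 measured genes on the 12 arrays, by group; circles, squares and triangles are replicates 1, 2 and 3, and black bars are the mean ± SD of 3 arrays. Mmp9, Padi4, Cxcr2, Itgam and Csf3r are high in both IDH1mut and R-2HG, Anxa1 is high in IDH1mut, and S100a8 and S100a9 stay within 0.07 of 0 on every array.

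Of the secreted and enzymatic products, Mmp9 encodes gelatinase B, a matrix protease stored in tertiary granules. Its values were -0.17, -0.53 and -0.47 on the empty vector arrays, -0.07, -0.006 and -0.09 on IDH1wt, 0.47, 0.49 and 0.29 on IDH1mut, and 0.35, 0.36 and 0.28 on R-2HG. Every IDH1mut and R-2HG array lay above every empty vector and IDH1wt array, and the IDH1mut and R-2HG arrays overlapped. Mmp9 rose by 0.80 ± 0.095 (SE) in IDH1mut against empty vector, 1.74-fold, with an adjusted p of 0.000148. In R-2HG against empty vector it rose by 0.71, 1.64-fold (adjusted p = 0.000227). The order of group means was empty vector, IDH1wt, R-2HG, IDH1mut; the last 2 differed by 0.09 (95% interval -0.12 to 0.30, adjusted p = 0.484) and the first 2 by 0.33 (0.12 to 0.54, adjusted p = 0.108). Without empty vector replicate 1, the highest of its group, the difference of IDH1wt from empty vector was 0.44 with an adjusted p of 0.0291.

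Padi4 encodes a nuclear peptidylarginine deiminase that converts histone arginine to citrulline and takes part in the release of neutrophil extracellular traps. Its values were -0.42, -0.60 and -0.52 with the empty vector, -0.45, -0.57 and -0.50 with IDH1wt, 0.35, 0.40 and 0.38 with IDH1mut, and 0.69, 0.67 and 0.32 with R-2HG. The empty vector and IDH1wt arrays interleaved and all lay below the other 6. Padi4 rose by 0.89 ± 0.095 (SE) in IDH1mut, 1.85-fold (adjusted p = 8.51e-05), and by 1.07 ± 0.095 in R-2HG, 2.10-fold (adjusted p = 4.71e-05), each against empty vector. IDH1wt differed from empty vector by 0.0065 (95% interval -0.20 to 0.21). R-2HG replicates 1 and 2 lay above all IDH1mut arrays and replicate 3 below all of them, and the difference of IDH1mut from R-2HG was -0.18 (-0.39 to 0.03, adjusted p = 0.152). Without R-2HG replicate 3 this difference was -0.30, with an adjusted p of 0.00935.

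Anxa1 encodes annexin A1, a phospholipid-binding protein of neutrophil granules and cytosol that acts on formyl peptide receptors and limits neutrophil recruitment. Its values, the mean of 2 probe sets, were -0.03, 0.16 and 0.09 with the empty vector, -0.04, -0.12 and -0.06 with IDH1wt, 0.57, 0.91 and 0.97 with IDH1mut, and 0.02, -0.12 and -0.02 with R-2HG. The 3 IDH1mut arrays lay above the other 9. Anxa1 rose by 0.74 ± 0.10 (SE) in IDH1mut against empty vector, 1.67-fold (adjusted p = 0.000352). In R-2HG against empty vector the difference was -0.12 (95% interval -0.33 to 0.10, adjusted p = 0.371). The difference of IDH1mut from R-2HG, tested directly, was 0.86, 1.81-fold (adjusted p = 0.000482). The size and the sign of the Anxa1 values depended on the probe set, as described with the probe sets.

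S100a8 and S100a9 encode the 2 chains of calprotectin, a calcium- and zinc-binding protein that makes up a large part of neutrophil cytosol. S100a8 was read at 0.002, -0.069 and -0.057 on the empty vector arrays, -0.047, -0.030 and -0.033 on IDH1wt, -0.016, 0.041 and 0.023 on IDH1mut, and 0.023, 0.014 and 0.004 on R-2HG. S100a9 was read at 0, -0.012 and -0.065, then -0.002, -0.028 and -0.054, then 0.020, -0.004 and 0, then 0.021, 0 and 0, in the same order of groups. Both genes had their lower group means in empty vector and IDH1wt, but the steps were small. In IDH1mut against empty vector S100a8 differed by 0.06 (95% interval -0.07 to 0.18, adjusted p = 0.525) and S100a9 by 0.03 (-0.09 to 0.16, adjusted p = 0.745). In R-2HG against empty vector the differences were 0.06 (-0.07 to 0.18, adjusted p = 0.463) and 0.03 (-0.09 to 0.16, adjusted p = 0.673). The within-group SDs were 0.025 and 0.023, and limma's moderation, which draws small variances toward those of other genes, gave SEs of 0.057 for both. S100a8 was higher without overlap in R-2HG against empty vector (23.7% of all genes) and in IDH1mut against IDH1wt (15.8%). Both genes were so in R-2HG against IDH1wt (26.4%).

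The SD over the 12 arrays was 0.0264 for S100a9, the lowest of all 15858 genes, and 0.0353 for S100a8, the fifth lowest. The median over all genes was 0.189. The other 6 genes had SDs from 0.321 (Itgam) to 0.524 (Padi4), above 87.3% to 96.7% of genes. Between S100a9 and S100a8 in this order, and named only for that place, stood Vdac2, a mitochondrial channel, Rps29, a ribosomal protein, and Ngp, a neutrophil granule protein. Because centred values hold no level, it is not known in which part of the array's range these probe sets were read, and a limit of the range was not tested. The probe set of S100a8, 1419394_s_at, has a suffix that marks probes which can match more than 1 transcript.

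**Figure D2:**
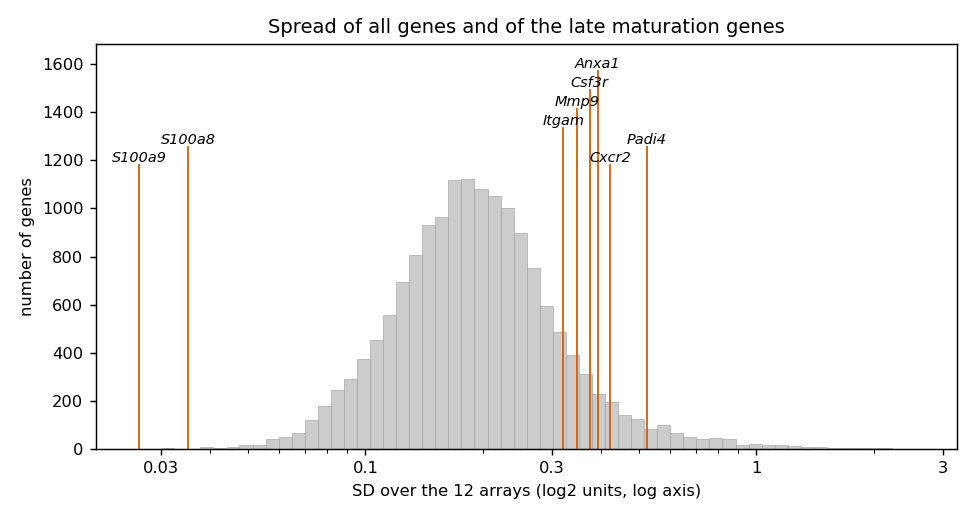
Number of genes (vertical axis) by SD of the centred log2 value over 12 arrays (horizontal axis, logarithmic), with the 8 measured genes marked. S100a9 (0.0264) and S100a8 (0.0353) lie at the lower end and the other 6 genes, from 0.321 to 0.524, above the median of 0.189.

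Among the receptors, Cxcr2 binds CXC chemokines such as CXCL1 and CXCL2 and draws neutrophils from marrow to blood. Its values were -0.001, -0.42 and -0.18 with the empty vector, -0.09, 0.15 and 0 with IDH1wt, 0.98, 0.72 and 0.72 with IDH1mut, and 0.25, 0.07 and 0.53 with R-2HG. The IDH1mut arrays were the 3 highest, the R-2HG arrays lay above all empty vector arrays, and R-2HG and IDH1wt overlapped. Cxcr2 rose by 1.01 ± 0.14 (SE) in IDH1mut against empty vector, 2.01-fold (adjusted p = 0.000333). In R-2HG against empty vector it rose by 0.48, 1.40-fold (adjusted p = 0.0140), a call that was lost without empty vector replicate 2 (0.37, adjusted p = 0.0660). IDH1mut exceeded R-2HG by 0.52, 1.44-fold (adjusted p = 0.0126), which was not called without R-2HG replicate 2 (0.41, adjusted p = 0.0583). IDH1wt differed from empty vector by 0.22 (95% interval -0.08 to 0.51, adjusted p = 0.454).

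Csf3r encodes the receptor for granulocyte colony-stimulating factor, the main growth factor of the neutrophil lineage. It was read at -0.24, -0.54 and -0.42 on empty vector arrays, -0.26, -0.02 and -0.10 on IDH1wt, 0.57, 0.28 and 0.33 on IDH1mut, and 0.27, 0.29 and 0.56 on R-2HG. The 6 IDH1mut and R-2HG arrays overlapped one another and lay above the other 6. Csf3r rose by 0.80 ± 0.11 (SE) in IDH1mut against empty vector, 1.74-fold (adjusted p = 0.000489), and by 0.77 ± 0.11 in R-2HG, 1.71-fold (adjusted p = 0.000393). IDH1mut and R-2HG differed by 0.02 (95% interval -0.22 to 0.27, adjusted p = 0.881). The difference of IDH1wt from empty vector was 0.27 (0.03 to 0.52, adjusted p = 0.259).

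Itgam encodes CD11b, the alpha chain of the integrin Mac-1, which pairs with CD18 (Itgb2) and binds ICAM-1 and complement fragments. Its values were -0.25, -0.21 and -0.20 with the empty vector, -0.20, -0.16 and -0.36 with IDH1wt, 0.26, 0.31 and 0.20 with IDH1mut, and 0.52, 0.51 and 0.32 with R-2HG. Each R-2HG array lay above each IDH1mut array, and all 6 lay above empty vector and IDH1wt, which overlapped. Itgam rose by 0.48 ± 0.078 (SE) in IDH1mut, 1.39-fold (adjusted p = 0.00116), and by 0.67 ± 0.078 in R-2HG, 1.59-fold (adjusted p = 0.000117), both against empty vector. IDH1mut differed from R-2HG by -0.20 (95% interval -0.37 to -0.03) with an adjusted p of 0.0674, which became -0.26 and 0.0210 without R-2HG replicate 3. The partner Itgb2, named outside the rule for named genes, rose by 0.47 in IDH1mut (adjusted p = 0.000234) and by 0.33 in R-2HG (adjusted p = 0.00136).

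Counted together, in IDH1mut against empty vector 6 of the 8 genes were called higher and 0 lower, where 22.6% of all genes were called, 10.5% as higher. Their median difference was 0.77, beside -0.05 over all genes, and the same 6 genes had groups that did not overlap, as did 17.5% of all genes in that direction. In R-2HG against empty vector 5 were called higher and 0 lower, with 40.8% of all genes called, 16.5% as higher. The median of the 8 was 0.58 beside 0.003 over all genes, and 6 genes had groups that did not overlap upward, as did 23.7% of all genes. The 2 comparisons share the empty vector arrays. The count in R-2HG was 5 without replicate 3, with 44.3% of all genes called. With replicate 3 as the only R-2HG array, the rises of the 5 genes ran from 0.54 (Itgam) to 0.96 (Csf3r).

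In IDH1wt against empty vector 0 of the 8 genes were called by limma, where 1.35% of all genes were called, 0.788% as higher. With array weights 1, Mmp9, was called, beside 8.75% of all genes. The unadjusted p was under 0.05 for 2 of them, Mmp9 and Csf3r, whose 95% intervals lay above 0. The median of the 8 genes was 0.0056. Mmp9 was higher on every IDH1wt array and Anxa1 lower than on any empty vector array; groups did not overlap for 23.8% of all genes.

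Against IDH1wt, IDH1mut had 6 genes higher and 0 lower, with 15.7% of all genes called, 8.37% as higher, and a median of 0.51; groups did not overlap upward for 7 of the 8 and for 15.8% of all genes. The differences were 0.47 for Mmp9 (adjusted p = 0.00630), 0.88 for Padi4 (0.000217), 0.89 for Anxa1 (0.000256), 0.79 for Cxcr2 (0.00263), 0.49 for Itgam (0.00168) and 0.52 for Csf3r (0.00940). R-2HG against IDH1wt had 4 genes higher and 0 lower, with 44.4% of all genes called, 21.4% as higher, and 6 had groups that did not overlap upward (26.4% of all genes). Padi4 rose there by 1.07, 2.09-fold, Itgam by 0.69, Csf3r by 0.50 and Mmp9 by 0.38 (adjusted p = 0.00740). Cxcr2 differed by 0.27 (95% interval -0.03 to 0.56, adjusted p = 0.129) and Anxa1 by 0.03 (-0.18 to 0.25).

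Between IDH1mut and R-2HG, 2 of the 8 genes were called, Anxa1 and Cxcr2, both higher in IDH1mut, where 36% of all genes were called, 20.3% as higher in IDH1mut. These 2 had all IDH1mut arrays above all R-2HG arrays (25% of all genes), and Itgam had them all below (22.9%). For the 6 others the difference was not called, which does not show that they were alike: the intervals ran down to -0.39 for Padi4 and up to 0.30 for Mmp9. Over the 4 groups, limma's F test called the 6 genes other than S100a8 and S100a9, with adjusted p from 2.49e-05 (Padi4) to 0.000623 (Cxcr2), beside 54.6% of all genes.

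**Figure D3:**
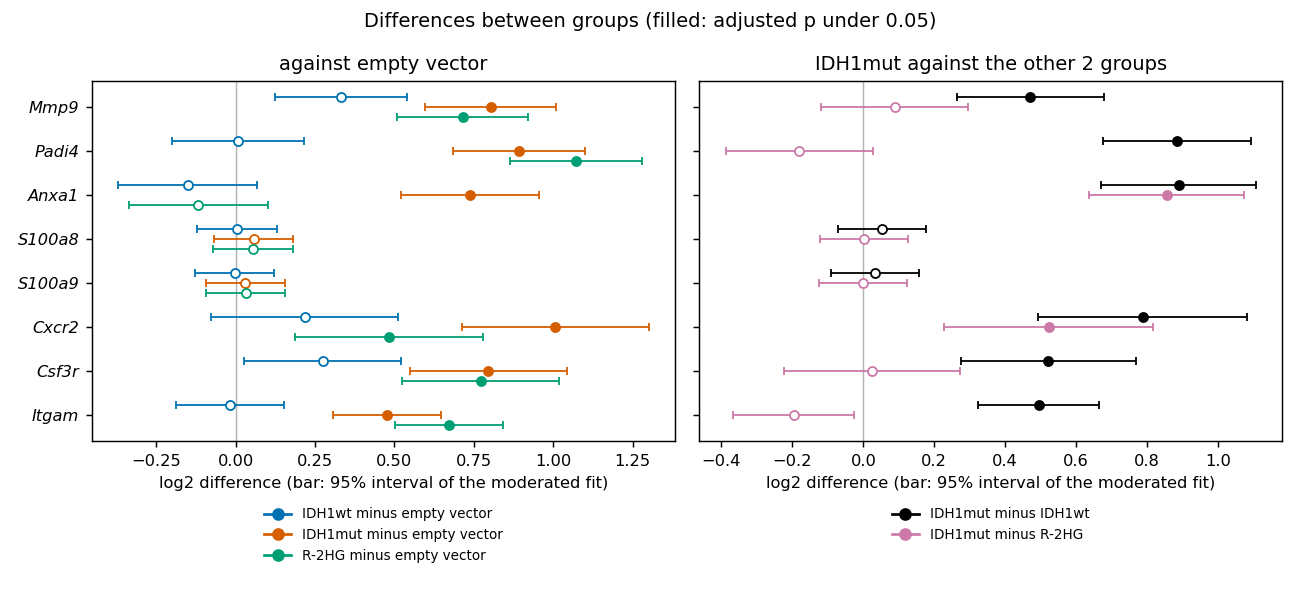
Log2 difference (horizontal axis) of each of the 8 measured genes, as the moderated estimate with its 95% interval. The comparisons drawn are those against empty vector and those of IDH1mut against IDH1wt and against R-2HG. R-2HG against IDH1wt is not drawn. Filled points have an adjusted p under 0.05 over all genes. Against empty vector they are 6 in IDH1mut, 5 in R-2HG and 0 in IDH1wt, beside 22.6%, 40.8% and 1.35% of all genes. IDH1mut has 6 against IDH1wt and 2, Anxa1 and Cxcr2, against R-2HG, beside 15.7% and 36% of all genes.

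The 2 probe sets of Mmp9 and the 2 of Anxa1 read the same RNA and are not replicates; over probe sets, 21.9% were called in IDH1mut against empty vector and 39.5% in R-2HG against empty vector. For Mmp9, 1416298_at (A) and 1448291_at (B) gave 0.63 and 0.97 in IDH1mut and 0.68 and 0.74 in R-2HG, against empty vector. They gave opposite signs between IDH1mut and R-2HG (-0.05 and 0.23), where neither was called. For Anxa1, 1444016_at (A) was read at 0.96, 1.58 and 1.75 with IDH1mut and at -0.001, -0.31 and -0.09 with R-2HG, beside 0, 0.44 and 0.39 with the empty vector. The other, 1448213_at (B), was read at 0.18, 0.24 and 0.18 with IDH1mut, 0.05, 0.07 and 0.04 with R-2HG, and -0.05, -0.12 and -0.21 with the empty vector. Both rose in IDH1mut against empty vector, by 1.15 (adjusted p = 0.000869) and 0.32 (adjusted p = 0.00682). They pointed opposite ways in R-2HG against empty vector, at -0.41 (adjusted p = 0.0875) and 0.18 (adjusted p = 0.0633). Between IDH1mut and R-2HG probe set A gave 1.57 (adjusted p = 0.000336) and B gave 0.14 (adjusted p = 0.135), where 34% of probe sets were called, so the call for Anxa1 in that comparison came from 1 probe set. In R-2HG against IDH1wt, with 40.7% of probe sets called, B was called higher (0.21, adjusted p = 0.0329) and A was not (-0.14, adjusted p = 0.546). In IDH1wt against empty vector, with 1.94% called, none of these 4 was.

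**Figure D4:**
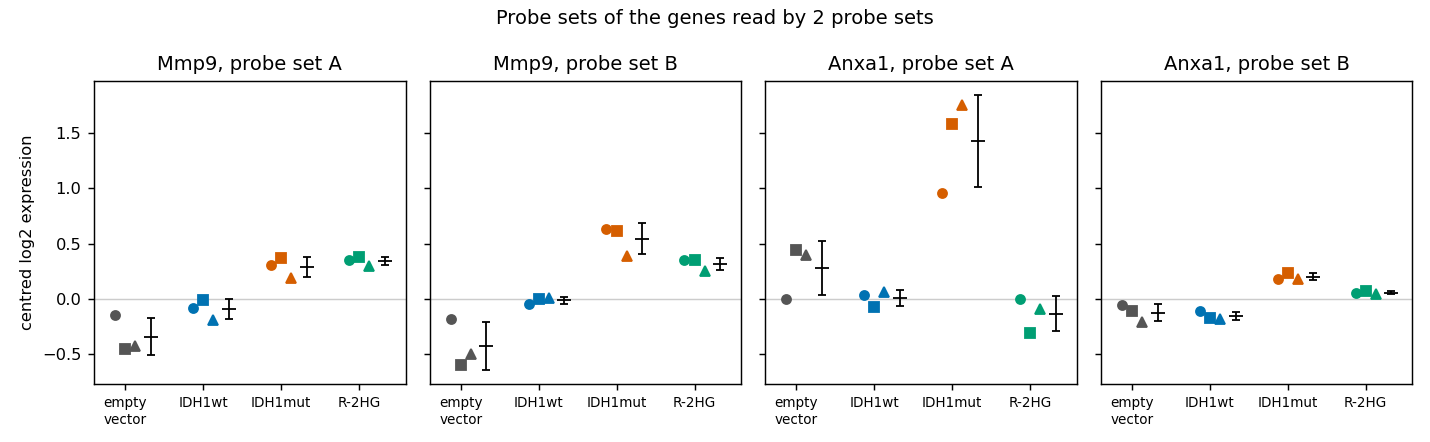
Centred log2 value (vertical axis) of the 2 probe sets of Mmp9 and the 2 of Anxa1 on the 12 arrays by group, with mean ± SD of 3 arrays. Both Mmp9 probe sets have their lowest group mean with the empty vector and are high with IDH1mut and R-2HG, whereas Anxa1 probe set A (1444016_at) lies at 0.96 to 1.75 with IDH1mut and -0.31 to -0.001 with R-2HG, and B (1448213_at) at 0.18 to 0.24 and 0.04 to 0.07.

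The counts of the lists that follow stand beside 10.5% of all genes called higher and 12.1% called lower in IDH1mut against empty vector, and 16.5% higher and 24.3% lower in R-2HG. Among other genes of late neutrophils more were called higher than lower. Of 30 measured genes on that list, 20 rose and 3 fell in IDH1mut against empty vector (median 0.54), and 12 rose and 4 fell in R-2HG (median 0.30). Fpr2, a formyl peptide receptor that annexin A1 also binds, was read at -0.22, -0.55 and -0.64 with the empty vector, 0.84, 0.93 and 0.82 with IDH1mut, and 0.60, 0.57 and 0.31 with R-2HG. All its IDH1mut arrays lay above all R-2HG arrays, which lay above all empty vector arrays, and it rose by 1.33 (adjusted p = 1.64e-05) and 0.96 (adjusted p = 0.000102). Il1r2, a decoy receptor for interleukin 1, rose by 1.56 in IDH1mut (adjusted p = 3.28e-05), with 0.31 in R-2HG (adjusted p = 0.101), and the difference between the 2 was 1.25 (adjusted p = 0.000394). Cd300lf, an inhibitory myeloid receptor, rose by 1.22 and 1.03.

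Of 22 genes for chemoattractant receptors, their ligands, adhesion and receptor signalling, 9 rose and 1 fell in IDH1mut (median 0.36), and 6 rose and 3 fell in R-2HG (median 0.10), 40.9% of the list beside 40.8% of all genes. C5ar1, the receptor for complement C5a, was read at 0.99, 0.87 and 0.78 with IDH1mut and -0.11, -0.16 and 0.23 with R-2HG, beside -0.04, -0.06 and -0.20 with the empty vector. Only the IDH1mut arrays stood apart: C5ar1 rose by 0.98 there (adjusted p = 8.51e-05), was 0.08 in R-2HG (adjusted p = 0.543), and differed between the 2 by 0.89 (adjusted p = 0.000482). Ccr1, a receptor for CC chemokines, had the same order of empty vector, R-2HG and IDH1mut means. It gave 0.72 in IDH1mut (adjusted p = 0.000160), 0.13 in R-2HG (adjusted p = 0.242) and a difference of 0.59 between them (adjusted p = 0.00114). Of 21 genes from the families or partners of the 10, 8 rose and 1 fell in IDH1mut, and 8 rose and 2 fell in R-2HG. Among them Ager, a receptor that binds calprotectin and other S100 proteins, rose by 0.77 and 0.74, and S100a6, another S100 protein, rose by 0.54 and 0.22 (adjusted p = 0.0444). S100a6 was read at -0.006, 0 and -0.072 with R-2HG and at -0.02, 0.023 and -0.022 with IDH1wt. With the empty vector its values were -0.085, -0.338 and -0.324.

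Granule genes divided by stage. Of 21 measured genes of secondary and tertiary granules, 15 rose and 1 fell in IDH1mut against empty vector, and 15 rose and 0 fell in R-2HG, with a median of 0.42 in each. Mmp8, neutrophil collagenase, rose by 2.15 in IDH1mut and 1.22 in R-2HG. Olfm4, a granule protein of a subset of neutrophils, was read at -1.01, -1.19 and -1.19 with the empty vector, 0.91, 1.26 and 0.98 with IDH1mut, and 2.63, 2.56 and 2.03 with R-2HG. Its groups did not overlap, and unlike Mmp8 it was lower in IDH1mut than in R-2HG, with a difference of -1.36 (adjusted p = 0.000737). Adam8, a surface protease, rose by 1.44 and 0.94. Of 12 measured genes of primary granules or their stage, 0 rose and 8 fell in each comparison, with medians of -0.72 and -0.38. Ctsg, cathepsin G, fell by 0.94 and 0.62, Nkg7 by 0.99 and 0.81, and Calr, a chaperone of the endoplasmic reticulum, by 0.50 and 0.53.

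Of 16 neutrophil transcription factors, 6 rose and 2 fell in IDH1mut (median 0.0069), and 2 rose and 2 fell in R-2HG, 25% of the list beside 40.8% of all genes. Cebpa, which drives entry into the granulocyte lineage, fell by 0.63 in IDH1mut (adjusted p = 0.000181) and 0.40 in R-2HG (adjusted p = 0.00167). Klf5 rose by 0.83 and 0.82, and Max, the partner of Myc, by 0.61 and 0.32. Of 6 measured genes of the NADPH oxidase, which makes superoxide, 4 rose and 0 fell in each comparison; Cyba rose by 0.26 in each, Ncf1 by 0.23 and 0.21, and Ncf4 by 0.28 and 0.29. In IDH1wt against empty vector, 2 of the 21 genes of secondary and tertiary granules rose, among them Olfm4 (0.84, adjusted p = 0.0410). Of the 30 other late neutrophil genes, 0 rose and 1 fell there. Over all genes 1.35% were called in that comparison, 0.788% as higher. Several genes stand on more than 1 of these lists, so their counts are not independent of each other.

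**Figure D5:**
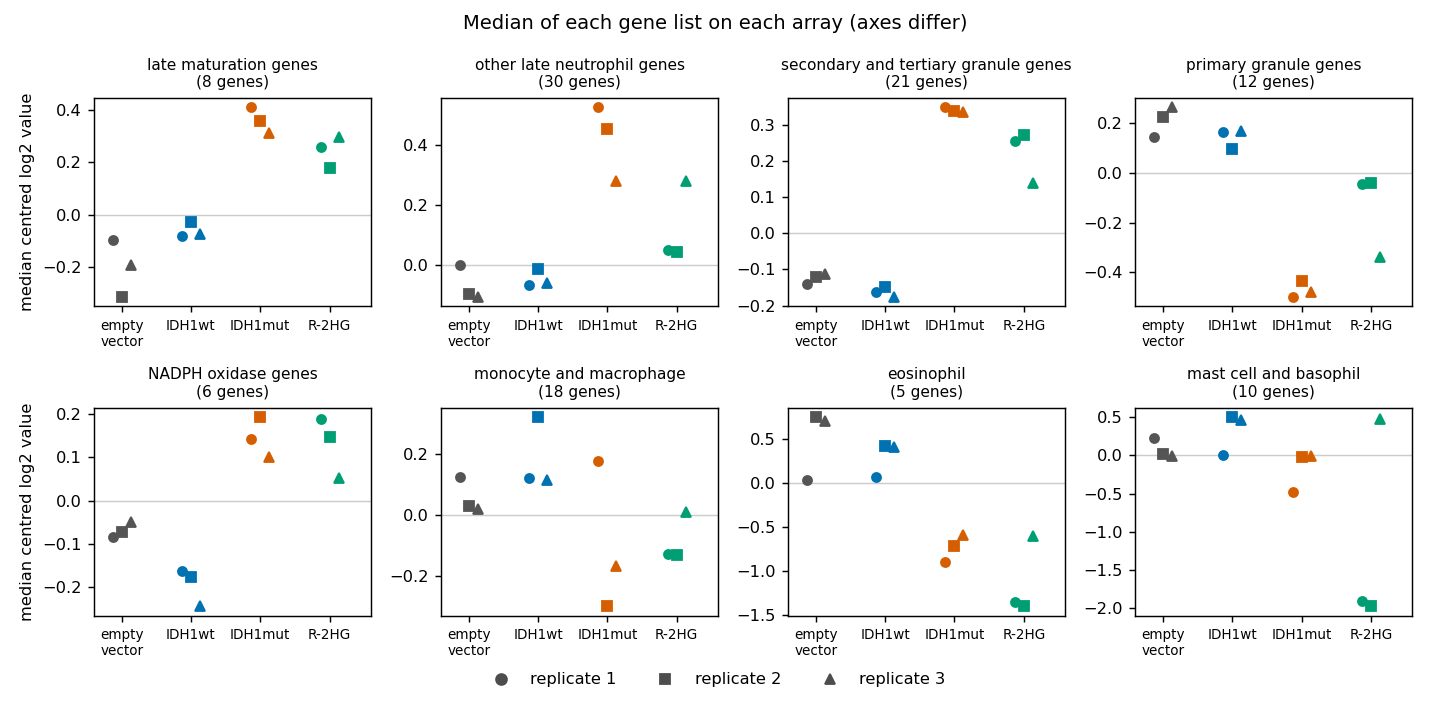
Median centred log2 value (vertical axis, with its own range in each panel) of the genes of each list on each of the 12 arrays, by group, with circles, squares and triangles for replicates 1, 2 and 3. The medians of secondary and tertiary granule genes lie at 0.33 to 0.35 with IDH1mut and 0.14 to 0.27 with R-2HG, above -0.14 to -0.11 with the empty vector, and those of primary granule genes run the other way.

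Markers of other cells that a GFP sort could hold were counted in the same way, beside 12.1% of all genes called lower in IDH1mut and 24.3% in R-2HG, each against empty vector. Centred values cannot show that any of these markers was absent. Of 18 measured monocyte and macrophage markers, 7 (38.9%) fell and 1 rose in IDH1mut (median -0.21), and 6 (33.3%) fell and 0 rose in R-2HG (median -0.30). The list's median was 0.02 to 0.13 on empty vector arrays, 0.12 to 0.32 on IDH1wt, -0.30 to 0.18 on IDH1mut and -0.13 to 0.01 on R-2HG. Of 15 stem and progenitor markers, 5 (33.3%) fell and 4 (26.7%) rose in IDH1mut, and 8 (53.3%) fell and 0 rose in R-2HG (median -0.51). The median of that list was 0 to 0.08 on empty vector arrays, -0.02 to 0.12 on IDH1wt, -0.17 to 0.17 on IDH1mut and -0.48 to -0.13 on R-2HG, so all R-2HG arrays lay below all empty vector arrays. Of 5 measured eosinophil markers, 2 fell in IDH1mut and 4 in R-2HG, with list medians of 0.03 to 0.75 on empty vector arrays, 0.07 to 0.42 on IDH1wt, -0.90 to -0.59 on IDH1mut and -1.40 to -0.60 on R-2HG. For 10 mast cell and basophil markers, of which 1 fell in IDH1mut and 3 fell and 1 rose in R-2HG, the list median was -1.91 and -1.98 on R-2HG replicates 1 and 2 but 0.48 on replicate 3. Of 14 dendritic cell markers, 1 fell and 3 rose in IDH1mut and 5 (35.7%) fell in R-2HG. The median of that list was -0.69 and -0.78 on R-2HG replicates 1 and 2 but 0.30 on replicate 3. On empty vector arrays it was 0.01 to 0.19. Of 14 B cell markers, 3 rose in IDH1mut and 4 (28.6%) fell in R-2HG. For T and NK cells, 3 of 13 markers rose and 1 fell in IDH1mut, and 2 rose and 3 fell in R-2HG. Erythroid markers, 13 in number, had 3 (23.1%) that rose in IDH1mut (median 1.15) and 1 (7.69%) in R-2HG (median -0.34). Over all genes 10.5% and 16.5% were called higher. The erythroid list's median was -0.80 to -0.62 on empty vector arrays, -0.945 to 0.28 on IDH1wt, 0.15 to 0.39 on IDH1mut and -1.85 to 0 on R-2HG. Between IDH1mut and R-2HG, 10 erythroid (76.9%) and 9 B cell markers (64.3%) were higher in IDH1mut and 0 lower, beside 20.3% of all genes higher. Megakaryocyte and platelet markers, 10 in number, had 0 called in IDH1mut, and 2 higher and 1 lower in R-2HG. The part of these cells in the differences of the 10 genes was not tested. The rise of Mmp9, Padi4, Cxcr2, Itgam and Csf3r in R-2HG was also called with replicate 3 as the only R-2HG array, by 0.54 (Itgam) to 0.96 (Csf3r), the lone array being assumed to vary like the other groups.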

How the data were processed

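Total RNA of 12 sorted samples, 3 per group, was read on biotin-based Affymetrix expression arrays. Per the submitters' processing notes the authors used RMA, and the deposited values are log2 expression. The values are centred per probe set: no probe set has more than 7 of its 12 values on one side of 0, and an exact 0 occurs in 83.6% of them. The reference of the centring and the version of RMA are not given in the sources, and no batch or scan date was given. Probe sets with 1 symbol in the platform annotation were averaged per gene. All genes were fitted together with limma (version 3.58.1, under R 4.3.3; moderated tests, 1 coefficient per group, 8 residual and 3.96 prior degrees of freedom, two-sided, Benjamini-Hochberg); the procedure was tested on simulated data. The number of arrays limits the precision. The members and all lists were chosen with earlier results of these data known. Lists were not tested; genes named from the pathway lists are the 3 per list with the smallest F test p, and others are marked where named. Promoter sequences are from RefSeq (GRCm38.p6); a match is a description. A comparison of protein sequences was not run. Alternatives covered the normalization, the probe set rule, filters, array weights, a fold minimum, a replicate block and leaving out arrays.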

Additional observations from a re-analysis of the deposited data

How the results depend on the processing

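The 23 called differences of the 8 genes were refitted 559 times under the alternatives, and kept their direction in 559 and their call in 545. Many of these refits could not change a direction, because the estimate stayed the same by construction. That held for a variance trend, the block, the SD filter, the fold minimum and fits of only the 2 groups compared. It also held for leaving out an array of a group not compared, and for probe set rules in genes with 1 probe set. Among the 8 genes, 3 were called in IDH1mut against IDH1wt with a fold of at least 1.5, beside 3.76% of all genes. In R-2HG against IDH1wt 2 were, beside 10.6%. Between IDH1mut and R-2HG the count was 1 after a second quantile normalization (28.8% of all genes) and 1 with that fold minimum (6.5%). Array weights gave 4 there, 2 higher and 2 lower in IDH1mut (48.5%). With 1 array left out it was 1 to 4 (19.6% to 41%). In IDH1wt against empty vector the count was 1 with array weights (8.75%) and 0 to 1 with 1 array left out (0.53% to 2.36%). Leaving out 1 array gave 6 in IDH1mut against empty vector (15.3% to 25.9%) and against IDH1wt (9.89% to 18.8%). It gave 4 to 5 in R-2HG against empty vector (28.9% to 44.3%) and 4 in R-2HG against IDH1wt (30.7% to 47.3%). Cxcr2 between IDH1mut and R-2HG was not called after quantile normalization (0.34) or without both R-2HG replicates 1 and 2 (0.27), and Mmp9 in R-2HG against IDH1wt was not called without both (0.33). The causes were not tested.

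Signs that turned belonged to differences that were not called. Anxa1 was 0.18 in R-2HG against empty vector with probe set B alone, and -0.14 in R-2HG against IDH1wt with probe set A. Between IDH1mut and R-2HG, Csf3r was -0.054 after quantile normalization, -0.0021 with arrays centred and -0.16 without both R-2HG replicates 1 and 2, Mmp9 -0.053 with probe set A alone, Padi4 0.058 without both, S100a8 -0.024 with arrays centred, and S100a9 0.0043 after quantile normalization and 0.0054 without both. In IDH1wt against empty vector, Itgam was 0.0091 and 0.0056 after quantile normalization and centring, Padi4 -0.066 after quantile normalization, and S100a9 0.00998, 0.022 and 0.0028 after quantile normalization, centring and weights. With 1 array left out, differences of IDH1mut from R-2HG ran from -0.064 to 0.12 for Csf3r, -0.0104 to 0.018 for S100a8 and -0.0091 to 0.0054 for S100a9, and those of IDH1wt from empty vector from -0.059 to 0.041 for Itgam, -0.035 to 0.052 for Padi4, -0.0090 to 0.027 for S100a8 and -0.022 to 0.011 for S100a9.

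Same-numbered arrays did not deviate together: over 18 pairs the correlation of deviations ran from -0.152 to 0.124, with 1 over 0.1. With the replicate number as a block, the counts among the 8 genes were 6, 5, 0, 6, 2 and 4, in the order IDH1mut, R-2HG and IDH1wt against empty vector, IDH1mut against IDH1wt and against R-2HG, and R-2HG against IDH1wt. Over all genes the block gave 3258, 6183, 147, 2178, 5346 and 6767 calls, beside 3579, 6471, 214, 2484, 5714 and 7035 without it. A fold of at least 1.5 gave 930, 1627, 119, 596, 1031 and 1676 in that order. Without both R-2HG replicates 1 and 2, the calls were 1824 in R-2HG against empty vector, 336 between IDH1mut and R-2HG and 1610 in R-2HG against IDH1wt. Between IDH1mut and R-2HG they were 3376 without R-2HG replicate 1 and 3109 without replicate 2, and in IDH1mut against IDH1wt 1568 without IDH1wt replicate 3 and 1636 without IDH1mut replicate 2. In IDH1wt against empty vector they were 382 with the probe set of highest SD, 425 after quantile normalization, 1388 with array weights, 89 and 84 without empty vector replicates 2 and 3, 123 and 86 without IDH1wt replicates 2 and 3, and 375 without R-2HG replicate 3. A filter on SD left out S100a8 and S100a9, which then had no value.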

Other observations

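The genes whose profile over the 12 arrays lay closest to the mean profile of the 8 measured genes were ranked by the root mean square difference, each profile centred on its own mean. The nearest was Gsn, which encodes the actin-severing protein gelsolin, at 0.0569, followed by Mafg, a small Maf transcription factor, at 0.0645. Pram1, an adaptor of myeloid cells, and Tepsin, an adaptor of vesicle coats, followed at 0.0669 each. Ube2b, a ubiquitin-conjugating enzyme, stood at 0.0671, Cdk11b, a kinase, at 0.0708, Slc35a5 at 0.0711 and Rhof, a small GTPase, at 0.0721. The median over all genes was 0.306. The group means of Gsn were -0.24 with the empty vector, -0.17 with IDH1wt, 0.27 with IDH1mut and 0.15 with R-2HG.

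The 8 genes themselves lay farther from their own mean than these neighbours. The neighbours had been picked for being nearest, so nothing is drawn from that comparison. What follows are the distances of the 8 genes. Mmp9 was nearest at 0.124, then Itgam at 0.151, Csf3r at 0.153 and Cxcr2 at 0.207. S100a8 and S100a9 stood at 0.226 and 0.237, Padi4 at 0.287 and Anxa1 at 0.297. Their mean profile is therefore that of no single member.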
